A study of Mus musculus with 121 samples.

Results

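Cells of mouse bone marrow deposited under the state names MP and Mono were compared cell by cell within a single set of sorted GMP cells. The set shares the name R412X-GMP in the labels, is called the run here and holds 62 of the 121 cells of the series and 62 of its 75 GMP cells. Of these, 11 cells carry the state name MP and 32 the name Mono. The other 19 cells are 9 Gran-1, 5 cMoP, 2 Multi-Lin and single cells of Gran-2, HSCP-1 and MDP. Every cell came from C57BL/6 mice, with a genotype given as Gfi1-R412X/- in one label field and as HTZ in others, so MP and Mono carry the same labelled genotype. Wild-type cells are not analysed here, and the sources used here give neither the age nor the number of the mice. Marrow from crushed hindlimbs was enriched on beads against CD117, the Kit receptor, sorted by flow cytometry, captured on the Fluidigm C1 system and made into cDNA with the SMARTer kit.

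GMP is the usual short name for a progenitor that gives rise to neutrophils and monocytes. In such cells Gfi1, a zinc finger repressor, favours the neutrophil path, and Irf8, an interferon regulatory factor, favours the monocyte path, each acting against the other's program. Cells on the way to monocytes switch on lysosomal proteases, chemokine receptors and scavenging genes, whereas cells on the way to neutrophils fill their primary granules with serine proteases and antimicrobial proteins. Early progenitors transcribe genes of several lineages at once.

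Values are log2(TPM + 1), with TPM the share of a transcript in 1 cell scaled to a fixed total. Each value after ± is the SD over single cells, and it says how far cells spread and not how well a state is known. No animal is named, so each state counts as 1 sample and no difference carries a p-value. The states were named by the authors for these same cells, so genes that separate them describe the naming. A gene was taken as detected in a cell at 1 TPM or more, and a difference of 1 or more between state means was the size counted. The read depth of a cell is unknown because TPM does not keep it. The number of detected genes was 3755 to 4953 in MP cells (median 4455) and 1951 to 6153 in Mono cells (median 4671.5). Of the 32 Mono cells, 16 fell within the MP range, 13 had more genes than any MP cell and 3 had fewer. The median share of a cell's TPM held by its 20 most abundant genes was 16.8% in MP and 16.2% in Mono.

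A total of 9345 genes passed the filter, which asked for detection in 10% or more of MP or of Mono cells. Of these, 829 (8.87%) were higher in MP by 1 or more and 1252 (13.4%) were lower. The median difference of MP minus Mono over these genes was −0.11. Within the shared range of detected genes, 11 MP against 16 Mono cells, 1174 genes were higher, 1218 were lower and the median was −0.03. The plot of gene means in MP and Mono shows Elane and Mpo at the top of the range near equality in both, with Prss57, Pglyrp1 and Cd63 above the line and F13a1, Ctss and Aurka below it.

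**Figure D1:**
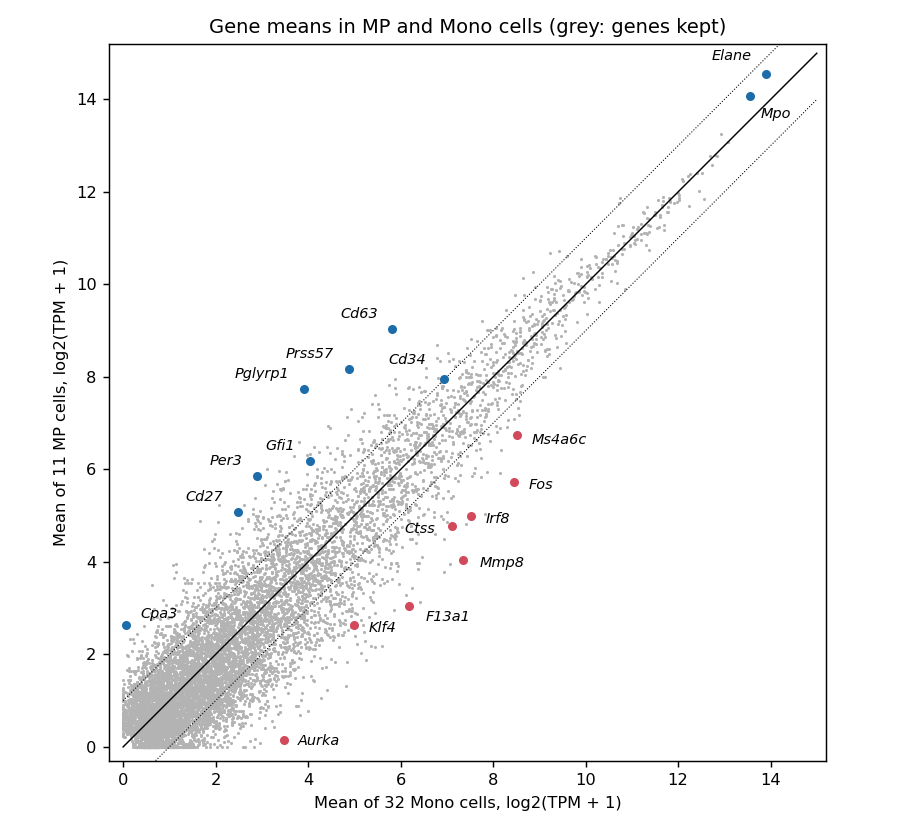
Mean log2(TPM + 1) of each gene kept in 32 Mono cells (horizontal) and 11 MP cells (vertical), with the line of equality and dotted lines at a difference of 1. Prss57, Pglyrp1 and Cd63 lie more than 3 above equality, and Aurka, Mmp8 and F13a1 more than 3 below it.

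Cd34, Irf8 and Ms4a6c are the marker genes given with this comparison. Cd34, a sialomucin on the surface of early progenitors, was detected in all 11 MP cells (100%, exact Clopper-Pearson 95% interval 71.5 to 100) and in all 32 Mono cells (100%, 89.1 to 100). Its lowest, median and highest values were 4.90, 8.23 and 9.94 in MP and 1.13, 6.99 and 10.58 in Mono. The MP range lies inside the Mono range, and 4 Mono cells fell below every MP cell. The means of 7.96 ± 1.62 and 6.94 ± 2.20 differed by 1.02. The difference was 0.74, under the size counted, in the shared range of detected genes. Intervals cover counting error only.

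Irf8 was detected in 9 of 11 MP cells (81.8%, 48.2 to 97.7) and in 32 of 32 Mono cells. MP cells ran from 0 to 8.95 with a median of 4.44, and Mono cells from 2.94 to 9.83 with a median of 7.73. The states overlap, but 8 of 11 MP cells fell below the Mono median and 5 Mono cells lay above every MP cell. The difference of means was −2.54 (4.99 ± 3.03 and 7.53 ± 1.49). Among the other states of the run, mean Irf8 was 8.66 in cMoP, above both, and 3.31 in Gran-1, below both.

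Ms4a6c, a membrane protein gene expressed in monocytes, was detected in every MP and every Mono cell. It ran from 2.12 to 10.03 in MP (median 7.27) and from 3.93 to 10.93 in Mono (median 9.15). The means of 6.74 ± 2.68 and 8.51 ± 1.68 differed by −1.77, with 9 of 11 MP cells below the Mono median. All MP cells thus had Cd34, most had less Irf8 and Ms4a6c than the Mono median, and the ranges of all 3 genes overlapped.

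Gfi1, the gene that carries the R412X allele, was higher in MP by 2.14, with means of 6.18 ± 3.55 and 4.04 ± 3.31. Its lowest, median and highest values were 0, 7.88 and 9.60 in MP and 0, 3.84 and 9.20 in Mono. MP cells fell into 8 above the Mono median, between 6.46 and 9.60, and 3 below it, at 0, 0.87 and 1.59. It was detected in 9 of 11 MP cells (81.8%, 48.2 to 97.7) and 24 of 32 Mono cells (75%, 56.6 to 88.5). Values per gene do not separate the R412X transcript from that of another allele.

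Many cells of either state held Gfi1 and Irf8 together. Both were detected in 7 of 11 MP cells (63.6%, 30.8 to 89.1) and 24 of 32 Mono cells (75%, 56.6 to 88.5). At 10 TPM or more the shares were 45.5% of MP and 53.1% of Mono cells. Gfi1 without Irf8 was seen in 2 MP cells and 0 Mono cells, where the limit that 3 cells set is a share of 9.38%. The level of Gfi1 exceeded that of Irf8 in 6 of 11 MP cells (54.5%, 23.4 to 83.3), 8 of 32 Mono cells (25%, 11.5 to 43.4) and 2 of 5 cMoP cells. In Gran-1, by contrast, 8 of 9 cells had more Gfi1 than Irf8.

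Other transcription factors went both ways. Of 9 monocyte and dendritic factors kept, 3 were lower in MP, beside 13.4% of all genes, and none higher, with a median of −0.70 beside −0.11 for all genes. Apart from Irf8, these were Klf4, a zinc finger factor of monocyte formation, at −2.36, and Tcf4, a basic helix-loop-helix factor of plasmacytoid dendritic cells, at −1.32. Klf4 was detected in 5 of 11 MP cells (45.5%, 16.7 to 76.6) and 27 of 32 Mono cells (84.4%, 67.2 to 94.7). Zeb2, a repressor active in monocytes and dendritic cells, and the immediate early factor Egr1 differed by 0.18 and −0.08. A further 7 factors of that list were below the detection filter, including Irf4 and Irf5.

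Of 11 granulocyte factors kept, 2 were higher in MP, Gfi1 and Per3, and 2 were lower, Runx1 and Cebpd, beside 8.87% of all genes higher and 13.4% lower. Per3, a period protein of the circadian clock, was placed in that list with earlier results known. It ran from 0 to 8.26 in MP (median 7.09) and from 0 to 7.56 in Mono (median 1.47), with 9 of 11 MP cells above the Mono median and a difference of 2.97. Its mean was 6.06 in Gran-1 and 1.70 in cMoP. Runx1, a core factor of blood formation, and Cebpd, a C/EBP factor of maturing myeloid cells, differed by −1.05 and −1.04. Cebpa and Cebpe, C/EBP factors needed for granulocyte formation, were higher in MP by 0.69 and 0.66, under the size counted, and Spi1, the myeloid master factor PU.1, differed by −0.35.

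Some monocyte marker genes were lower in MP, and a few were missing from many MP cells. Of 25 listed, 20 were kept. Of these, 7 were lower by 1 or more, beside 13.4% of all genes, and 1 was higher, beside 8.87%. The median was −0.75. By the ratio of mean TPM, 4 of the 20 were lower, a smaller share than the 27% of all genes lower on that scale. The list median there was −0.17, so the group difference was not seen by that measure. By the median over cells 9 were lower, beside 14.5% of all genes, 1 was higher, and the list median was −0.95. In the shared range of detected genes 8 were lower and 1 higher, beside 13% and 12.6% of all genes there, and the median was −0.64. The higher one was Cd68, a lysosomal glycoprotein, at 1.51. F13a1, the A subunit of coagulation factor XIII and a mark of monocyte progenitors, had the lowest difference of means among the 20 genes. It was 0 to 9.58 in MP (median 1.58) and 0 to 10.20 in Mono (median 7.07), with 8 of 11 MP cells below the Mono median. Its means of 3.04 ± 3.66 and 6.19 ± 3.17 differed by −3.15, and it averaged 8.55 in cMoP and 0.47 in Gran-1.

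Ctss, the lysosomal protease cathepsin S, was missing from more MP cells than Mono cells. It was detected in 7 of 11 MP cells (63.6%, 30.8 to 89.1) and 30 of 32 Mono cells (93.8%, 79.2 to 99.2), and the difference of means was −2.33. Where it was detected in MP it reached 8.88, and 9 Mono cells lay above that. Ly86, the MD-1 partner of an innate receptor, differed by −1.71, Psap, the precursor of saposins, by −1.88, and Ifi30, a lysosomal thiol reductase, by −1.47. Mmp8, a collagenase stored in neutrophil granules, followed the monocyte genes here. It was 0 to 9.08 in MP (median 3.78) and 0 to 9.85 in Mono (median 8.14), a difference of −3.31, and it averaged 6.65 in cMoP and 2.40 in Gran-1.

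The remaining monocyte genes kept were within 1 of each other in the 2 states, apart from Ms4a6b. Cst3, the protease inhibitor cystatin C, differed by −0.02, Csf1r, the receptor for macrophage colony-stimulating factor, by −0.23 and Lgals1, a galectin, by 0.05. Ly6c2, the surface antigen used to sort monocytes, had a mean of 11.85 in MP and 12.57 in Mono. Ccr2, the chemokine receptor by which monocytes leave the marrow, differed by −0.94. Ms4a6b, a relative of Ms4a6c, was the 1 member higher in MP, by 1.40. Over the 20 genes a cell's mean ran from 2.51 to 7.88 in MP (median 3.86) and from 2.91 to 8.08 in Mono (median 5.54). The 2 highest MP cells, at 7.88 and 6.47, lay above the Mono median, and the other 9 lay below it. The cell at 7.88 had F13a1 at 9.58 and Ctss at 7.96 with Gfi1, Pglyrp1 and Cd63 all at 0. The cell at 6.47 had Irf8 at 8.50 beside Gfi1 at 9.12.

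**Figure D2:**
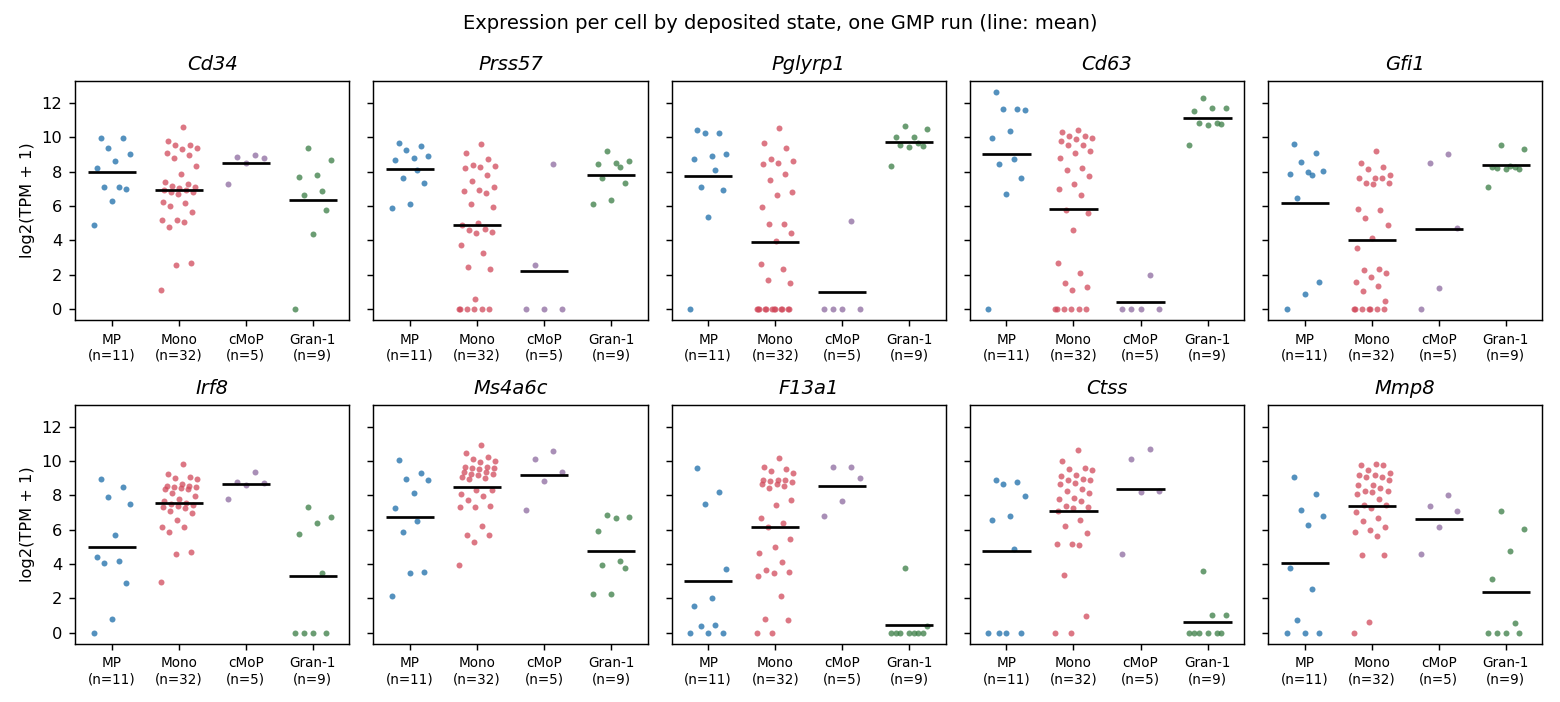
Values of 10 genes in single cells of 4 states of the run, as log2(TPM + 1), each point a cell and each line the mean of its state. For Prss57, Pglyrp1, Cd63 and Gfi1 the MP mean lies nearer to Gran-1 than the Mono mean does, and for F13a1, Ctss and Irf8 the Mono mean lies nearer to cMoP.

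Granule genes were transcribed at high level in both states, and only some set them apart. Mpo, myeloperoxidase, had means of 14.08 ± 0.77 in MP and 13.56 ± 0.83 in Mono. Elane, neutrophil elastase, had 14.55 ± 0.67 and 13.90 ± 0.71. The serine proteases Prtn3 and Ctsg differed by −0.19 and 0.34. The primary granule list holds 14 genes, all kept, and not every member encodes a granule protein. Of these, 4 were higher in MP by 1 or more, beside 8.87% of all genes, and 2 lower, beside 13.4%. The list median was 0.54. The 4 were Prss57, Srgn, Serpinb1a and Nkg7, and the 2 were Igfbp4 and Ctsc. In the shared range of detected genes Prss57 was the 1 member still higher by 1 or more, at 3.10, beside 12.6% of all genes there, while the list median was 0.55.

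Prss57, a serine protease of azurophil granules, was the member that differed most. It was present in all 11 MP cells, from 5.87 to 9.68 with a median of 8.68, and in 25 of 32 Mono cells (78.1%, 60 to 90.7), from 0 to 9.62 with a median of 4.95. All 11 MP cells lay above the Mono median and 17 Mono cells lay below every MP cell. The means of 8.17 ± 1.30 and 4.88 ± 3.19 differed by 3.29. It averaged 7.83 in Gran-1 and 2.20 in cMoP.

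Pglyrp1, a peptidoglycan recognition protein of neutrophil granules, had the largest difference toward MP, 3.82, among genes detected in at least 50% of MP cells. It ran from 0 to 10.42 in MP (median 8.76) and from 0 to 10.51 in Mono (median 3.30), with 10 of 11 MP cells above the Mono median and means of 7.74 ± 3.01 and 3.91 ± 3.78. Cd63, a tetraspanin of granule and lysosome membranes, had a median of 9.94 in MP and 7.15 in Mono and a difference of 3.21. It averaged 11.11 in Gran-1 and 0.39 in cMoP. Of 12 genes of the later granules kept, 1 was higher in MP and 1 lower, beside 8.87% and 13.4% of all genes. Their median was −0.14. The higher one was Anxa1, annexin A1, present in all 11 MP cells and higher by 1.48, and the lower one was Mmp8. Fcnb and Lyz1 of that list differed by −0.92 and −0.72. Transcripts of later granules, Ltf, Camp and Ngp, were below the detection filter in both states. S100a8 and S100a9 were seen in 5 and 2 of 11 MP cells and differed from Mono by 0.69 and 0.18.

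Surface and regulator genes of earlier progenitors were mixed. Of 17 kept, 4 were higher in MP by 1 or more, beside 8.87% of all genes, and none lower, with a median of 0.07. Cd27, a tumour necrosis factor receptor family member on early progenitors, was detected in 8 of 11 MP cells (72.7%, 39 to 94) and 15 of 32 Mono cells (46.9%, 29.1 to 65.3), and differed by 2.60. Eltd1, an adhesion G protein-coupled receptor gene now called Adgrl4, was detected in 7 of 11 and 10 of 32 cells and differed by 2.57. Gata2 and Cd34 were the other 2. Kit, the receptor used for enrichment, differed by 0.21, Myb by 0.31 and Sox4, a stem and progenitor factor, by −0.45, while Flt3 was below the detection filter.

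A part of the MP cells transcribed genes of the basophil and mast cell lineage. Cpa3, the mast cell carboxypeptidase, was detected in 5 of 11 MP cells (45.5%, 16.7 to 76.6), at 1.38, 2.58, 6.70, 8.90 and 9.34. Among Mono cells it was detected in 0 of 32 (limit 9.38%), and no cMoP or Gran-1 cell had it. The contrast depends in part on the cutoff. At 10 TPM or more Cpa3 was in 27.3% of MP cells, and above 0 TPM in 45.5% of MP and 6.25% of Mono cells. Gata2, a GATA factor of stem cells and mast cells, was detected in 3 other MP cells, at 5.05, 6.04 and 6.96, and in 3 of 32 Mono cells. No MP cell had both. Of these 3 Gata2 cells, 2 were the cells with the highest monocyte marker means.

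Hdc, histidine decarboxylase, was broader: it was detected in all 11 MP cells and in 26 of 32 Mono cells, with a difference of 2.08, and its mean of 8.57 in Gran-1 was above both. Mcpt8, the basophil protease, was detected in 5 of 11 MP cells and 11 of 32 Mono cells and differed by 0.95. The other 7 genes of that list, including Ms4a2 and Fcer1a for the IgE receptor and Epx and Prg2 of eosinophils, did not pass the detection filter. In the Multi-Lin cells of the run Cpa3 reached 14.2 and 10.8 and Gata2 10.3 and 10.2, so the MP levels lay under those. Summed TPM of the 11 marker genes ran from 33.9 to 2934 in MP (median 511.5) and from 0 to 1173 in Mono (median 207).

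**Figure D3:**
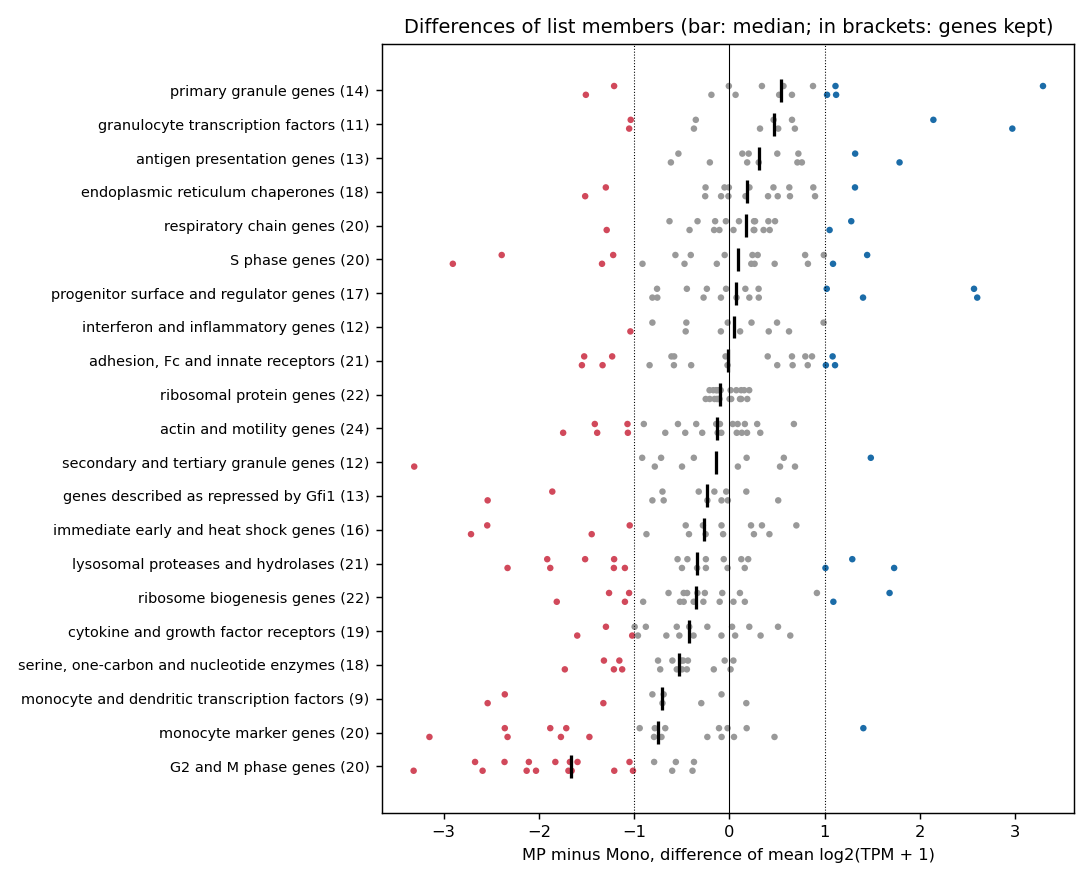
Difference of MP minus Mono for the kept members of 21 gene lists, with blue for 1 or more, red for −1 or less, grey between and a bar at each list's median. Primary granule genes have the highest median, 0.54, and G2 and M phase genes the lowest, −1.67.

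Genes of mitosis were lower in MP than in Mono over all cells. Of 20 G2 and M phase genes, all kept, 15 were lower by 1 or more, beside 13.4% of all genes, none was higher and the median was −1.67. Aurka, the Aurora A kinase of spindle poles, was detected in 0 of 11 MP cells (limit 27.3%) and in 19 of 32 Mono cells (59.4%, 40.6 to 76.3). Above 0 TPM it was in 18.2% of MP and 59.4% of Mono cells. Aurkb, the Aurora kinase of the chromosomal passenger complex, differed by −2.67, Ube2c, which joins ubiquitin to mitotic cyclins, by −2.59, and Plk1, a kinase of mitotic entry, by −2.36. Mki67, the proliferation antigen Ki-67, differed by −1.83, Cdk1, the mitotic kinase, by −1.69 and Top2a, a DNA topoisomerase, by −1.21.

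The mitotic difference was smaller in the shared range of detected genes than over all cells. A cell's mean over the 20 genes ran from 1.19 to 4.40 in MP (median 1.59) and from 0.70 to 7.31 in Mono (median 3.35). Of the 13 Mono cells above every MP cell, 10 were among the 13 with more detected genes than any MP cell, which had a median of 5.50. Another 2 were among the 3 with fewer genes, which had a median of 4.57. The remaining 1 was among the 16 in the shared range, which had a median of 2.12. In that range 3 of the 20 genes were lower by 1 or more, Aurka at −1.83, Aurkb at −1.36 and Cenpe, a kinetochore motor, at −1.35. Nusap1, a spindle protein, was higher by 1.08 and the list median was −0.48, beside 12.6% of all genes higher and 13% lower. The count of 15 genes thus rests on the cells outside the shared range.

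Over all cells, S phase genes showed no such shift. Of 20, all kept, 2 were higher in MP, Ung and Mcm4, and 4 were lower, Fen1, Gins2, Rpa2 and Rrm1. Among all genes 8.87% were higher and 13.4% lower, and the list median was 0.09. Fen1, a flap endonuclease of lagging strand synthesis, differed by −2.90 and Gins2, a subunit of the replicative helicase, by −2.39, while Pcna, the sliding clamp, differed by 0.26 and Mcm5, a helicase subunit, by 0.99. A cell's mean ran from 3.69 to 6.90 in MP (median 5.94) and from 3.22 to 7.74 in Mono (median 5.74), so replication genes were transcribed in both states. In the shared range 7 members were lower, beside 13% of all genes there and 3 of the 20 mitotic genes, and none was higher, with a median of −0.24. Of the 22 ribosomal protein genes, none reached a difference of 1, and their median was −0.10.

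**Figure D4:**
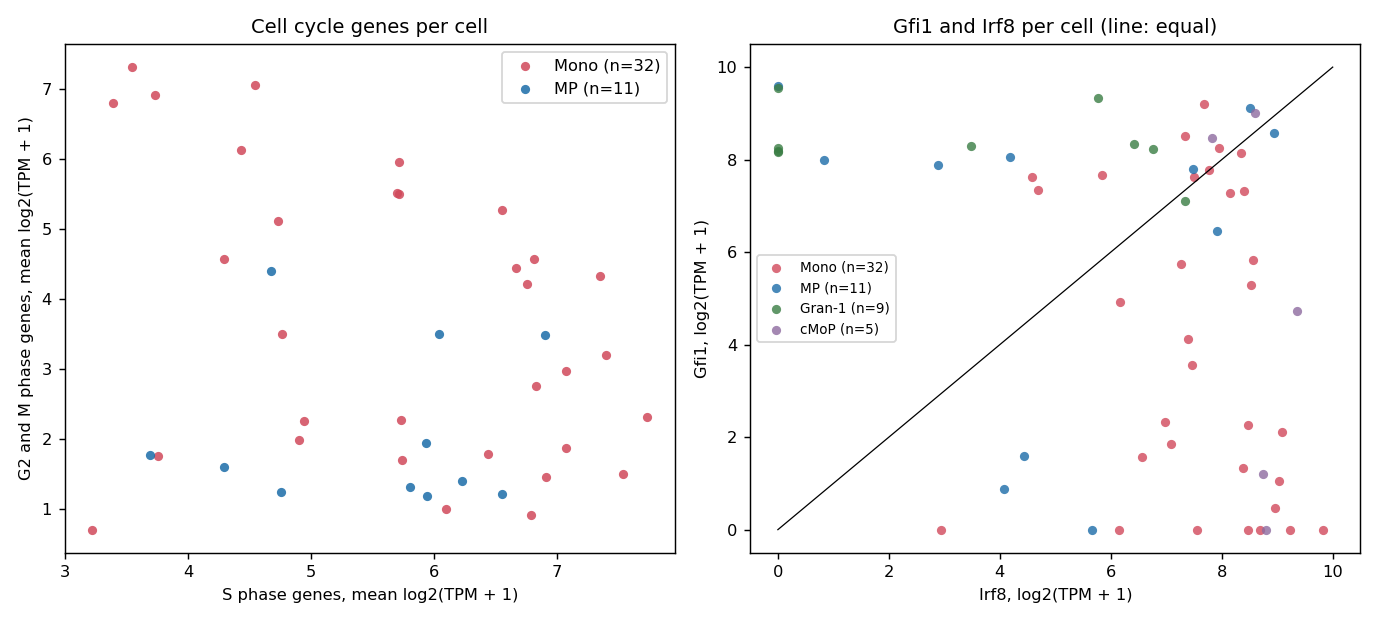
Left, the mean log2(TPM + 1) of S phase genes and of G2 and M phase genes in each MP and Mono cell. Mono cells reach 7.31 on the mitotic axis and MP cells 4.40. Right, Irf8 and Gfi1 in each cell of 4 states with the line of equality, where 6 of 11 MP and 8 of 32 Mono cells lie above it.

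Many promoters of the mitotic genes hold sequence features described for that class of gene. The list was made of mitotic genes, so such matches follow from its choice and say nothing about MP against Mono. Such genes are known to be held down outside G2 and M phase through the cell cycle homology region, with the letters TTTGAA, often near CCAAT boxes that bind the factor NF-Y. RefSeq promoter windows (build GRCm38.p6, not the build of the deposited values) were matched by symbol for 18 of the 20 genes and cover 250 bases before the start to 50 after it. Searched on both strands, TTTGAA was in 13 of 18 windows against 20.2% of 27025 genes. CCAAT was in 16 of 18 against 41.1%, and both were in 13 of 18 against 7.97%. The monocyte markers serve as a contrast, with TTTGAA in 4 of 20 matched windows and CCAAT in 6 of 20. The ETS core GGAAGT was in 10 of those 20 and in 4 of the 18 mitotic windows, against 26.5% of all genes. A match describes letters and is neither a bound site nor a cause.

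The matches of 5 of the mitotic genes named above are printed so that the motif can be seen in place, each in 30 bases, read 5′ to 3′ on the strand that holds TTTGAA, which is in capitals.
Aurka: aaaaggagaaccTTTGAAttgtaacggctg
Ube2c: ccgccgcccgcgTTTGAAttgcaaccctcc
Plk1: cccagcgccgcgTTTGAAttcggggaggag
Mki67: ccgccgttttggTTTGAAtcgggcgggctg
Cdk1: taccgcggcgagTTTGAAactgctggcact
They lie on the given strands at chr2:172370521-172370550 (minus), chr2:164769888-164769917 (minus), chr7:122159453-122159482 (plus), chr7:135716460-135716489 (minus) and chr10:69352910-69352939 (minus). The motif begins 29, 98 and 15 bases before the RefSeq start in Ube2c, Mki67 and Cdk1 and after it in Aurka and Plk1. The difference of MP minus Mono was −3.31 for Aurka, −2.59 for Ube2c, −2.36 for Plk1, −1.83 for Mki67 and −1.69 for Cdk1. In the shared range of detected genes these were −1.83, −0.47, −0.80, −0.61 and −0.17. A match was also present in Kif23, Top2a, Ccnb2, Hmmr, Cenpf, Kif11 and Cdc20, which differed by −1.59, −1.21, −1.05, −0.79, −0.60, −0.39 and −0.37. In the shared range these were −0.62, 0.70, −0.26, −0.28, −0.10, 0.94 and 0.67. The list's other genes had no window, no match or a match too near a window's edge to print. Over all cells Aurkb, Bub1b, Bub1, Tpx2 and Ccnb1 among them differed by −2.67, −2.13, −2.11, −2.03 and −1.67. Cenpe, Nusap1 and Birc5 differed by −1.66, −1.01 and −0.56. A link between the motif and the difference was not tested.

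The upstream sequence of Ube2c is printed as an example that holds both motifs. The 250 bases before its start at chr2:164769679-164769928, plus strand, carry 1 TTTGAA (as TTCAAA here) and 6 CCAAT matches over both strands (CCAAT or ATTGG). Matches are in capitals, and CCAATTGG counts once on each strand.
Ube2c upstream: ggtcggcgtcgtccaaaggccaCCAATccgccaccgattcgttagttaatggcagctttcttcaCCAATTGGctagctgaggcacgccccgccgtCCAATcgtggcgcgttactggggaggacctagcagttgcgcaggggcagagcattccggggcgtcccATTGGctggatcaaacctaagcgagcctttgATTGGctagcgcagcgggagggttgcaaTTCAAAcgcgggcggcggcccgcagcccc
In the cells, Ube2c was detected in 5 of 11 MP and 20 of 32 Mono cells, from 0 to 6.37 in MP and from 0 to 10.71 in Mono. In the shared range of detected genes its difference was −0.47.

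Immediate early genes differed in a few members. Of 16 immediate early and heat shock genes kept, 4 were lower in MP, beside 13.4% of all genes, none higher, and the median was −0.26. Fos, the AP-1 subunit, was 0 to 10.25 in MP (median 7.16) and 0 to 10.69 in Mono (median 9.01), with a difference of −2.71. Btg2, an antiproliferative gene induced with it, differed by −2.54, Junb by −1.45 and Zfp36, an mRNA decay factor, by −1.05. Egr1, Jun and Dusp1, members of the same rapid response, differed by −0.08, −0.25 and 0.34.

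Lysosomal genes went both ways. Of 21 kept, 7 were lower in MP, beside 13.4% of all genes, and 3 higher, beside 8.87%, with a median of −0.34. Besides Ctss and Psap, the lower ones included the proteases Ctsh at −1.91, Ctsa at −1.52 and Ctsz at −1.21. The higher ones were Hexa, a hexosaminidase subunit, at 1.73, Cstb, a cathepsin inhibitor, at 1.29, and Lamp1, a membrane glycoprotein of lysosomes, at 1.01. Of 13 antigen presentation genes, 2 were higher and none lower, beside 8.87% and 13.4% of all genes, with a median of 0.31. These were H2-DMb1, a chaperone of class II loading, at 1.78, and Tap2, a chain of the peptide transporter of class I loading, at 1.32. B2m and H2-K1, the class I light chain and a heavy chain, differed by 0.50 and 0.76.

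Few receptor genes reached the size counted. Of 19 cytokine receptor genes kept, 3 were lower in MP, close to the 13.4% of all genes, none was higher, and the median was −0.42. These were Ifnar2, a type I interferon receptor chain, at −1.60, Il17ra, an interleukin 17 receptor chain, at −1.30, and Csf2ra, the alpha chain for GM-CSF, at −1.02. Csf3r, the receptor for G-CSF, was detected in 11 of 11 MP and 23 of 32 Mono cells, with a difference of −0.55. Of 21 adhesion, Fc and innate receptor genes, 3 were higher and 4 lower, beside 8.87% and 13.4% of all genes. Their median was −0.02. Those lower were led by Tlr2, a receptor for bacterial lipoproteins, at −1.55, and Itgal, an integrin chain, at −1.52. Fcgr3, an Fc receptor used in sorting GMP cells, had means of 8.62 and 7.80.

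Among metabolic and housekeeping lists, enzymes of serine, one-carbon and nucleotide synthesis were lower in part, with 5 of 18 lower, beside 13.4% of all genes, none higher and a median of −0.53. By the ratio of mean TPM 2 of the 18 were lower, beside 27%. Shmt1 and Shmt2, the serine hydroxymethyltransferases, differed by −1.73 and −1.16 and Impdh2, of guanine nucleotide synthesis, by −1.32. Of 20 respiratory chain genes, 2 were higher and 1 lower, beside 8.87% and 13.4% of all genes. Of 24 actin and motility genes, 5 were lower and none higher, beside 13.4% and 8.87% of all genes. Their median was −0.13, and Coro1a, an actin regulator of leukocytes, differed by −1.39. Of 13 genes described as repressed by Gfi1, 2 were lower in MP, close to the 13.4% of all genes, and none was higher, with a median of −0.23. The 2 were Irf8 and Bax, a promoter of cell death, at −1.86.

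Markers of other cell types were scarce. Of the megakaryocyte, T and NK cell and dendritic cell lists no gene passed the detection filter. Of 10 erythroid genes only Car2, carbonic anhydrase 2, passed, detected in 0 of 11 MP and 5 of 32 Mono cells, and 9 were at 0 in all MP and Mono cells. Of 7 B cell genes only Cd79b passed, at −1.50, and 6 were at 0 throughout. Of 10 macrophage genes 3 passed, Emr1, Vcam1 and Slc40a1, with differences of −0.68, 0.66 and 0.06, while 7 were at 0 in all cells.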

How the data were processed

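Single cells of the run R412X-GMP were taken by their column names, and each cell's state was taken from the state name, an "other" kind of value, that the authors deposited beside the expression table. Per the submitters' processing notes the tools were Bowtie2 and RSEM with the mm9 build. Tool versions and the way the authors assigned states are not stated in those notes or the labels. The deposited table holds log2(TPM + 1) of 23946 genes: back-transformed, each cell of the table sums to between 999517 and 1001449. TPM keeps no read depth, and 78.8% of the MP and Mono values are 0, so a 0 may be a missed transcript.

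From these values the mean over cells was computed for each state with a pseudocount of 1 TPM, as MP minus Mono. The scale understates differences of low genes. A gene was kept if 10% or more of MP or of Mono cells had it at 1 TPM or more. Shares carry exact (Clopper-Pearson) 95% intervals, and a share of 0 the limit set by 3 cells. No test was run, because each state is 1 sample, so the spread between samples cannot be given. The members, the 21 program lists and the 7 lists of other cell types were chosen with earlier results of these data known. Older symbols were resolved through RefSeq synonyms, and 1 list gene was not in the table. Named genes were the markers and Gfi1, the 4 most different members per list and any member needed to describe a list, the 15 genes that differed most each way among those found in 50% or more of the higher state's cells, and each kept marker of another cell type. Alternatives changed the pseudocount, the summary over cells, the scaling, the detection filter and the cells used. The difference of means was checked on values drawn from Mono cells with a known shift, which tests neither the filter nor missed transcripts. The computation was run with Python 3.11.15, pandas 2.3.3, numpy 2.4.6 and scipy 1.17.1.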

Additional observations from a re-analysis of the deposited data

How the results depend on the processing

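Counts of genes past a difference of 1 depended on the scale. Higher in MP were 1592 genes with a pseudocount of 0.1 TPM, 186 with 10 TPM and 1422 by the ratio of mean TPM, against 829. Lower were 2307, 246 and 2525, against 1252. All of these are counts among the 9345 genes kept. A stricter filter leaves fewer genes to count: among those detected in at least 50% of either state, 596 were higher and 822 lower. Leaving out single cells gave 768 to 949 higher and 1173 to 1382 lower. By the ratio of mean TPM the erythroid median was −3.01 and the macrophage median −1.88. The basophil and mast cell median was 0 by the median over cells and 0 without the filter, against 1.74. At 10 TPM or more, Gfi1 and Irf8 were both detected in 53.1% of Mono cells and Cd34 and Irf8 in 87.5%. The monocyte marker median was −0.17 by the ratio of mean TPM. Among 92 named gene differences of 1 or more, the sign turned for Ifnar2 by the ratio of mean TPM (0.017). It also turned for Bst2, an interferon-induced gene, in the shared range of detected genes (0.11). Those 92 leave out Top2a and Nusap1, which went from −1.21 to 0.70 and from −1.01 to 1.08 in that range. The cause was not tested. The median of the G2 and M phase genes was −0.48 in that range. Of 92 named gene differences of 1 or more, 36 fell under 1 with a pseudocount of 10 TPM, 31 by the ratio of mean TPM, 21 by the median over cells, 11 in the shared range and 2 after scaling to one upper quartile. Leaving out some single cell brought 17 of those lower in MP and 6 of those higher, Cd34 among them (0.82 to 1.33), under 1, and turned no sign. No paired analysis was possible because the labels name no animal and the cell numbers pair no cells. With 11 MP cells, shares are known only within wide intervals.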

Other observations

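Some of the largest differences lay outside the gene lists. The genes given here were picked for that size in these same cells, so an extreme MP level partly follows from the choice. Ppie, a cyclophilin of the spliceosome, differed by −3.51, with all 11 MP cells below the Mono median and 20 Mono cells above every MP cell. Gorasp2, a Golgi stacking protein, differed by −3.29, again with all 11 MP cells below the Mono median. Wdr74, a ribosome assembly factor, differed by −3.42 and Gins1, a further subunit of the replicative helicase, by −3.24. In the shared range of detected genes the differences of Ppie, Gorasp2, Wdr74 and Gins1 were −4.09, −3.11, −3.46 and −3.36. That range reuses all 11 MP cells and 16 of the Mono cells, so it is no separate support. Ppie averaged 5.07 in cMoP and 6.60 in Gran-1, and Gorasp2 5.67 and 6.87, so MP was below all 3 states for both genes.

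In the other direction, Las1l, which acts in ribosomal RNA processing, was detected in all 11 MP cells and in 17 of 32 Mono cells, with a difference of 2.90 and all 11 MP cells above the Mono median. Med20, a subunit of the Mediator complex, differed by 2.88 (6 of 11 against 5 of 32 cells). Dus1l, a tRNA dihydrouridine synthase, was detected in 9 of 11 and 12 of 32 cells and averaged 4.86 in MP, 2.05 in Mono, 1.98 in cMoP and 0.75 in Gran-1. Rcn2, a calcium-binding protein of the secretory pathway, averaged 4.60, 1.98, 0.84 and 1.30 in the same states. MP was the highest of the 4 for both genes, which were picked for a large difference between MP and Mono.

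The single MDP cell had F13a1 at 8.5, Mmp8 at 9.6 and Gfi1 at 0. The single HSCP-1 cell had Cd63 at 12.2 and Cpa3 at 10.3 with Prss57 and Pglyrp1 at 0.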
